A study of Mus musculus with 3 samples.

Results

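Tnmd and Cnmd, the genes of tenomodulin and chondromodulin, were followed by taking their rows from the single-cell count tables of the series and summing them over the cells of each cluster. They are 2 of the 28953 genes named in the 3 tables together and 2 of the 27755 named in each of the D10 culture and E14.5 tail tables. The D6 paraxial mesoderm (PM) library was not analysed here for them, since neither name was found among the 25936 genes of its table. The genes were chosen by name, with earlier results of these data known.

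Tenomodulin and chondromodulin are close relatives, type II transmembrane glycoproteins with an extracellular BRICHOS domain and a cysteine-rich domain at the C-terminal end, and the C-terminal part of each is known to inhibit the growth of endothelial cells. Tenomodulin is the classical marker of differentiated tendon and ligament cells and lies downstream of the tendon transcription factor Scleraxis (Scx), whereas chondromodulin is made by cartilage, with which it shares the lack of blood vessels. In the embryo both tissues come from neighbouring progenitors that can express Scx together with Sox9, the transcription factor of chondrocytes.

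The study compared cells made from mouse embryonic stem cells (mESCs) with cells of the embryo. The D10 culture was the whole population of a monolayer differentiated in vitro from mESCs of ScxGFP reporter mice, in which GFP marks cells with an active Scx promoter. The cells had passed through embryoid bodies with the BMP inhibitor LDN-193189, had been brought to PM with LDN-193189 and the WNT agonist CHIR, and from D6 had received TGFβ1, the hedgehog agonist SAG and FGF2. The E14.5 tail was dissected from embryos in vivo, received no agent, and was collected from ScxGFP dams. The mESC line used and the number of embryos pooled were not given in the sources used here, and both libraries had been depleted of dead cells, with no sort for GFP described. Each condition was 1 library, so that library and condition cannot be told apart, no test between conditions was possible, and all intervals given in parentheses are exact 95% intervals that cover counting error only.

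The culture library held 7821 cells with a median of 5622 UMIs (unique molecular identifiers, each marking 1 captured transcript), and the tail library held 2052 cells with a median of 13512. The 2 libraries shared 4 cell barcodes. Cells carry the cluster codes deposited by the authors. Codes 1 and 2 are called the tendon codes here, with code 2 the proliferating one, and code 4 the fibrocartilage code. By marker sums, 22 tendon genes came to 17371, 15542 and 10079 CPM (UMIs of a gene divided by all UMIs of the same cells, scaled to counts per 1000000) in codes 1, 2 and 4 of the culture and to 15860, 11910 and 6458 CPM in the tail. In the same order, 20 cartilage genes summed to 1449, 2187 and 7768 CPM in the culture and to 718, 2772 and 15742 CPM in the tail. Summed over its cells, code 4 therefore had genes of both programs in either library. Such sums do not show whether the same cells carried both. In the tail, Scx fell as Col2a1 rose between code 4 cells grouped by Cnmd, as given below. For the tail the tendon markers fit the name only in part. Its codes 1 and 2 were higher than code 4 in collagen and proteoglycan genes that other connective tissue cells also express (Col1a1, Col1a2, Col3a1 and Dcn), but lower in Scx, Mkx, Egr2, Tnc and Fmod, and after thinning to equal depth a Scx UMI was found in 36.6% of their cells against 61.3% in code 4. In the culture these shares were 91.6% and 86.7%. The tables give the codes without names, so the names used here rest on these sums, and the cell numbers the study lists for its own fibrocartilage cluster fit code 3 instead. Tendon, cartilage and 5 pluripotency genes summed to 327, 141 and 4826 CPM in the 1088 cells of culture code 3, and to 1394, 143 and 3.33 CPM in the 49 cells of tail code 3. In the tail, 5 blood genes summed to 591, 2032 and 1554 CPM in codes 1, 2 and 4, against 0.280 to 2.95 CPM in the culture, and their part in the results was not tested. Since Tnmd and Cnmd were among the genes of the clustered cells, differences between codes are descriptions.

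The relationship between the 2 genes can be read from their coding sequences, which also shows how much sequence they share. In the mouse reference transcripts, Tnmd has 7 exons and 317 codons, and Cnmd has 7 exons and 334 codons. A global alignment of the coding sequences matched 534 of 926 gap-free columns, an identity of 57.7%, which was 66.1% over the last 180 bases of Tnmd. The longest run shared by both transcripts was 18 bases. The most similar 60 bases, with 46 identical positions (76.7%), lie close to the 3′ end of both coding sequences, at bases 877 to 936 of Tnmd and 928 to 987 of Cnmd. They are shown because this end holds the part of the protein the relatives have most in common, with capitals marking the identical bases.
Tnmd: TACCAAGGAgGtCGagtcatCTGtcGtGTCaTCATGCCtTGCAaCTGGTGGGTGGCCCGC
Cnmd: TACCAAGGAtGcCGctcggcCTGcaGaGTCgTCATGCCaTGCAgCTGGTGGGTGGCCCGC

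The 250 bases before the RefSeq start are shown because the genes were highest in different cluster codes. E-boxes (CANNTG) are bound by Scx, whereas ACAAT, or ATTGT on the other strand, is the core bound by Sox9 and its relatives. The Tnmd promoter is chrX:133850758-133851007 (GRCm38.p6, plus strand), with a GC content of 38.4%. It held no CANNTG and a single ACAAT, 69 bases before the start, in capitals.
Tnmd promoter: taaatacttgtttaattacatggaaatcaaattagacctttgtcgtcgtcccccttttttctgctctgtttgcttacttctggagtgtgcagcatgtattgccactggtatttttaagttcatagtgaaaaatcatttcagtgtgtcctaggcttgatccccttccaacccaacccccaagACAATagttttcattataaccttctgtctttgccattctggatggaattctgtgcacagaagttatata
The Cnmd promoter is chr14:79662184-79662433 (GRCm38.p6, minus strand), with a GC content of 54.0%. Its single E-box lies 75 bases before the start, in capitals, and it held no ACAAT on either strand.
Cnmd promoter: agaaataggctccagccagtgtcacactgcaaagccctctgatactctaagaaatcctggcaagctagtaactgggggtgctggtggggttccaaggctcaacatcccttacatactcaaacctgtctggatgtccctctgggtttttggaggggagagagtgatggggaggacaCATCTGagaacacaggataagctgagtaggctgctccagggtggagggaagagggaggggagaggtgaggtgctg
Both motifs are common, since 66.2% of 32851 RefSeq promoters of this length held a CANNTG, which reads the same on both strands, and 27.7% held ACAAT or ATTGT. A match is only a run of letters, and its absence covers only this window.

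Tnmd was measured in the tendon codes of both libraries and was far lower in fibrocartilage. In the culture it was at 23.6 CPM (21.3 to 26.0) in code 1, from 391 UMIs in 180 of 2964 cells, and at 12.1 CPM (10.1 to 14.4) in code 2, from 130 UMIs in 55 of 1353 cells. No Tnmd UMI was found in the 855 cells of code 4, where a floor of 3 counts corresponds to 0.902 CPM. In codes 1 and 2 together Tnmd was at 19.1 CPM (17.5 to 20.8). With code 4 set to that floor, this was 21.2-fold higher, with 7.20 to 103 as the interval. When every cell was weighted equally it was 14.1-fold higher at the floor. The exact upper limit for 0 UMIs in code 4 was 1.11 CPM, above the floor, so these ratios are not strict lower limits. The step of Tnmd was large next to that of Scx, which differed only 1.36-fold (1.33 to 1.40) between the same cells.

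In the tail, Tnmd was at 93.0 CPM (87.2 to 99.2) in code 1, from 942 UMIs in 108 of 685 cells. It was at 111 CPM (102 to 122) in code 2, from 482 UMIs in 27 of 186 cells. Code 4 of the tail was at 8.77 CPM (5.87 to 12.6), from 29 UMIs in 6 of 241 cells. The ratio of codes 1 and 2 over code 4 was 11.2 (7.79 to 16.8), while Scx was lower in codes 1 and 2 than in code 4, with a ratio of 0.803 (0.781 to 0.826). The Tnmd UMIs of code 4 sat in few cells, and 1 cell alone carried 18 of the 29. Without the 5 cells with most Tnmd UMIs in each group, an alternative chosen after seeing the data, 1 UMI was left in code 4 and the ratio was 199.7 (35.8 to 7897).

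Cnmd had the reverse order. In the culture it was at 54.1 CPM (46.5 to 62.6) in code 4, from 180 UMIs in 85 of 855 cells. Code 2 followed at 6.44 CPM (5.01 to 8.15), and code 1 was at 1.02 CPM (0.597 to 1.64), from 17 UMIs in 12 of 2964 cells. In the tail it was at 257 CPM (240 to 275) in code 4, from 851 UMIs in 115 of 241 cells. Code 2 was at 38.8 CPM (33.2 to 45.1), and code 1 at 12.0 CPM (9.92 to 14.3). Code 4 over codes 1 and 2 was 17.2 (13.2 to 22.5) in the culture and 12.9 (11.2 to 14.8) in the tail. The proliferating code 2 was thus above code 1 for Cnmd in both libraries, 6.29-fold (3.66 to 11.4) in the culture and 3.25-fold (2.55 to 4.14) in the tail. Without the 5 cells with most Cnmd UMIs in each code these were 7.30 (3.18 to 19.6) and 1.84 (1.35 to 2.51). With code 1 alone as the tendon code, the ratio of code 4 was 52.8 (32.1 to 92.7) in the culture and 21.5 (17.8 to 26.3) in the tail.

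**Figure D1:**
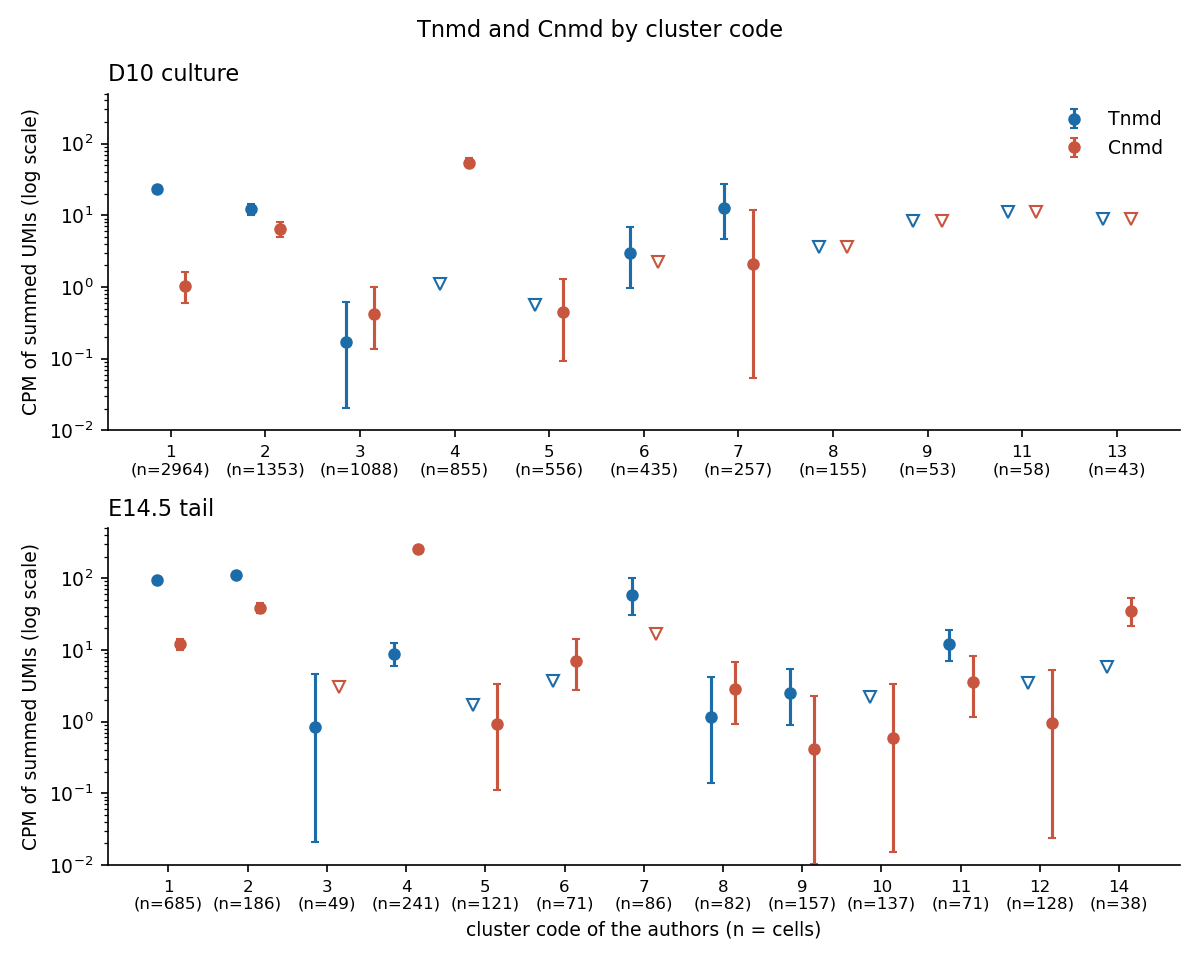
CPM of summed UMIs of Tnmd and Cnmd (log axis) for each cluster code with at least 20 cells, in the D10 culture and the E14.5 tail, with exact 95% Poisson intervals as bars and open triangles at their upper limit where the level was 0. Tnmd was highest in codes 1 and 2 of the tail, at 93.0 and 111 CPM, and Cnmd in code 4 of the tail, at 257 CPM.

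Beyond these codes the levels were mostly close to 0. For Tnmd in the culture, code 7, whose cells have few UMIs (median 1424), was at 12.7 CPM (4.67 to 27.7) from 6 UMIs in 5 cells, which overlapped the intervals of codes 1 and 2. Code 6 followed at 2.99 CPM (0.969 to 6.97) from 5 UMIs, and code 3, pluripotent-like cells with a median depth of 10369.5 UMIs, at 0.171 CPM (0.0207 to 0.616) from 2 UMIs. In the tail the next level after codes 1 and 2 was code 7 at 58.3 CPM (31.0 to 99.7), which overlapped code 1, but all of its 13 UMIs were in 1 cell, which also carried 110 Scx UMIs. Likewise, the 12.0 CPM (6.99 to 19.2) of the endothelial code 11 came from 17 UMIs in 1 cell with 77 Col1a1 and 13 Pecam1 UMIs, which Scrublet called a doublet. Code 4 overlapped code 11, and codes 9, 8 and 3 lay lower, at 2.47, 1.15 and 0.834 CPM, with intervals that overlap each other. The tail codes 5, 6, 10, 12 and 14 had no Tnmd UMI.

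For Cnmd the order outside codes 1, 2 and 4 had 1 exception. Code 14 of the tail, 38 cells with Gpr17, Foxd3 and Sox10 among their leading genes, was at 34.5 CPM (21.6 to 52.2), from 22 UMIs in 9 cells, and overlapped code 2 at 38.8 CPM. Cartilage genes were not high there, with 12 of 20 detected and no UMI of Acan, Matn1 or Comp. The cell with most Cnmd UMIs, 8 of the 22, had no Col2a1 UMI. Most of the other cells with Cnmd had Col2a1 UMIs, up to 14 per cell. All other tail codes lay between 0 and 6.90 CPM (2.77 to 14.2), the latter in code 6 from 7 UMIs. In the culture no other code exceeded 2.12 CPM (0.0536 to 11.8), which was 1 UMI in code 7.

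Within a library, the balance of the genes turned over from tendon to fibrocartilage. Of all UMIs of the pair, Tnmd made up 95.8% (93.4 to 97.6) in code 1 of the culture, 65.3% (58.3 to 71.9) in code 2 and 0% (0 to 2.03) in code 4. In the tail it made up 88.6% (86.6 to 90.5), 74.2% (70.6 to 77.5) and 3.30% (2.22 to 4.70). The library kit counts 1 tag from the 3′ end of each captured transcript, so these shares are not scaled by length and are to be compared between codes, not between the genes.

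Tnmd was found in few cells of codes 1 and 2, and Cnmd in up to 47.7% of cells of code 4, in the tail without thinning. These shares were set in part by depth. After thinning every cell to 3000 UMIs, which left out 1157 culture and 100 tail cells, 3.28% (2.74 to 3.88) of culture cells and 7.99% (6.27 to 10.0) of tail cells in codes 1 and 2 had a Tnmd UMI. Without thinning the shares were 5.44% and 15.5%, at median depths of 5545 and 14653 UMIs. As background, 0 of 1081 thinned cells of culture code 3 had a Tnmd UMI (upper limit 0.341%), as had 0 of 125 blood cells of tail code 12, with a median depth of 8391.5 UMIs (upper limit 2.91%). Cnmd was found in 9.83% (7.64 to 12.4) of thinned culture cells and 31.7% (25.8 to 38.0) of thinned tail cells of code 4, and in 9.94% and 47.7% without thinning, at median depths of 3696 and 13136 UMIs. Its background was 0.0925% (0.00234 to 0.514) in culture code 3 and 0 of 125 in tail code 12 (upper limit 2.91%).

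The Tnmd UMIs of the tail were concentrated in few cells. In the culture, no cell carried more than 9, and the cells with a UMI held 2.22 on average. In the tail, cells of code 1 with a UMI held 8.72 on average and up to 96, and those of code 2 held 17.9 on average and up to 139. The 10 cells with most UMIs held 51.4% of all Tnmd UMIs of tail code 1 and 93.2% of those of code 2. The higher level of tail code 2 over code 1, 1.20 (1.07 to 1.34), rested on such cells, and was 0.321 (0.251 to 0.406) without the 5 cells with most UMIs in each group. In the culture the ratio was 0.515 (0.419 to 0.630), and 0.434 (0.343 to 0.545) without those cells. Cnmd was less concentrated in code 4 of the tail, where the 10 cells with most UMIs held 30.8% and the maximum was 48. In code 2 the 10 cells with most Cnmd UMIs held 76.2% in the tail and 68.1% in the culture, with maxima of 26 and 14. In culture code 4 the maximum was 8.

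**Figure D2:**
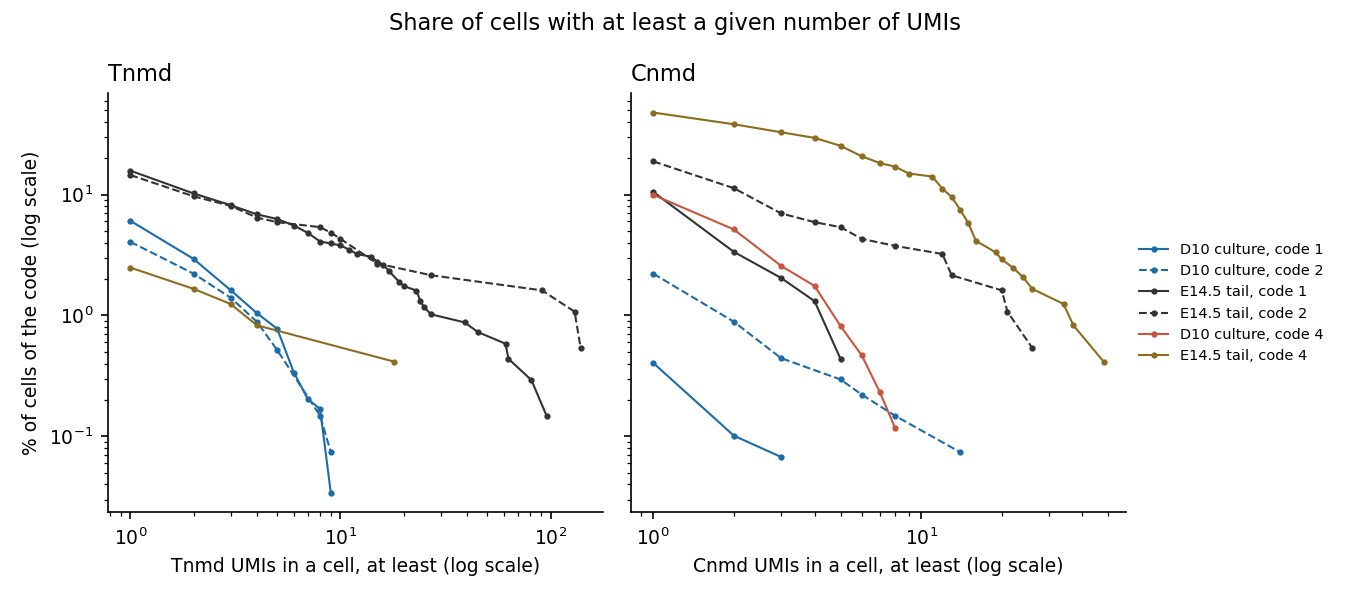
Share of the cells of a code (log axis) with at least a given number of UMIs of Tnmd (left) or Cnmd (right), for codes 1 and 2 or code 4 of each library, without thinning. The Tnmd curves of the tail reach 96 and 139 UMIs, and those of the culture end at 9.

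Few cells had a UMI of both genes. Without thinning, 3 cells of culture code 1 had both, and none of code 2, where independent detection within the code would give 0.729 and 1.22. In the tail, 11 cells of code 1 and 7 of code 2 had both, where independent detection would give 11.4 and 5.08. In tail code 4, all 6 cells with Tnmd also had Cnmd, which was found in 115 of 241 cells there, against 2.86 cells if independent. The cell with 18 Tnmd UMIs held 13 of Cnmd, 21 of Scx and 130 of Col2a1.

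Cells of codes 1 and 2 with and without a Tnmd UMI were compared next, to ask which tendon genes went with Tnmd there. In the tail most of those without Tnmd had no Scx UMI either, and whether they are tendon cells was not tested. These cells were thinned to 3000 UMIs, and genes with too few UMIs to show a 2-fold difference were left out. In the tail, Scx was 7.97-fold (7.47 to 8.50) higher in 69 cells with Tnmd than in 795 without. The median Scx count was 7 UMIs in the former and 0 in the latter, and 71.0% against 33.6% of cells had a Scx UMI, with 34.7% of the Scx UMIs of the former in 5 cells. In the culture Scx did not go with Tnmd, with a ratio of 0.978 (0.916 to 1.04) in 129 cells with Tnmd against 3807 without, and 91.5% against 91.6% of cells had a Scx UMI. Median depths before thinning were 16807 and 14557 UMIs in the tail and 7656 and 5797 UMIs in the culture.

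Of the 15 tendon genes with enough UMIs in the tail, 5 were at least 2-fold higher in cells with Tnmd, against 0.962% of all genes, and none was 2-fold lower. These were Scx, Col1a1, which encodes the main collagen of tendon (2.27, 2.13 to 2.42), Col14a1 of the fibril-associated collagens (2.74, 2.31 to 3.23), the matrix glycoprotein gene Tnc (2.02, 1.36 to 2.92) and Thbs2 (2.19, 1.51 to 3.11). The median log2 ratio of the list was 0.77, and that of all genes −0.05. Of 3 blood genes, Hbb-bt was at least 2-fold lower in tail cells with Tnmd (0.264, 0.156 to 0.420), against 3.30% of all genes, and its part in the comparison was not tested. In the culture, 2 of 18 were at least 2-fold higher, against 0.554% of all genes, and the median was −0.07, against −0.02. Among them was Thbs4, a thrombospondin of tendon matrix (3.21, 2.52 to 4.03). Tnc was at 1.66 (1.46 to 1.89) in the culture.

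Cartilage genes differed between libraries in this respect. In the culture, 5 of 9 were at least 2-fold lower in cells with Tnmd, against 2.5% of all genes, namely Sox9 (0.489, 0.315 to 0.724), Col2a1 (0.333, 0.244 to 0.444), Col9a1, Matn4 and Wwp2, and their median log2 ratio was −1.03. A Col2a1 UMI was found in 20.2% of thinned culture cells with Tnmd and in 38.4% of all thinned cells of codes 1 and 2. Of these 129 cells with Tnmd, 100 were in code 1, where Col2a1 was lower than in code 2. Within code 1 the shares were 16.0% (9.43 to 24.7) and 33.9%. Within code 2 they were 34.5% (17.9 to 54.3) and 47.2%, which did not differ beyond counting error. In the tail, 2 of 8 were at least 2-fold higher in cells with Tnmd, Col11a1 (3.94, 3.32 to 4.66) and Matn4 (2.50, 1.69 to 3.60), and Wwp2 was lower (0.402, 0.146 to 0.894), against 0.962% and 3.30% of all genes. Col2a1 was at 1.53 (1.19 to 1.95) and Sox9 at 0.961 (0.592 to 1.49). Cxcl12, a chemokine that attracts endothelial progenitors, was lower with Tnmd in both libraries, at 0.348 (0.209 to 0.545) in the culture and 0.395 (0.228 to 0.639) in the tail. It was the only member of 5 and 4 activators of angiogenesis past 2-fold, where 2.5% and 3.30% of all genes were lower. Of 7 inhibitors of angiogenesis in each library, 1 was at least 2-fold higher with Tnmd, against 0.554% of all genes in the culture and 0.962% in the tail. This was Thbs1 in the culture (2.35, 1.79 to 3.02) and Thbs2 in the tail.

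Splitting the tail cells further by their Tnmd count, in bins chosen after seeing the data and without thinning, showed a group of cells with high levels of several tendon genes. Scx was at 831 CPM in the 736 cells of codes 1 and 2 without Tnmd, at 2146 CPM in 64 cells with 1 or 2 UMIs, at 1812 CPM in 37 cells with 3 to 9, and at 11578 CPM in 34 cells with 10 or more. Mkx, the Mohawk homeobox gene of tendon, was at 11.7, 20.7, 37.6 and 194 CPM in the same order. Kera, which encodes the proteoglycan keratocan, was at 3.83, 33.4, 22.8 and 332 CPM. Scx was therefore almost level over the 2 middle bins and Kera did not increase between them, and both were highest in the last. Col1a1 rose less, from 2461 to 8333 CPM. Cnmd was at 21.4 CPM in the first bin and 9.76 CPM in the last, levels that rest on few cells. In tail code 2, 10 cells held 76.2% of its UMIs. By detection the genes were not opposed. After thinning, Cnmd was found in 5.80% (1.60 to 14.2) of cells with Tnmd and 4.98% of all cells of codes 1 and 2. Median depth increased from 14138.5 to 21416.5 UMIs over the bins, which CPM takes out but the Tnmd count does not, and the proliferation gene Mki67 was at 349 and 342 CPM in the first and the last. None of the 34 cells was called a doublet. All 8 cells of this last bin that belonged to code 2 had Mki67 UMIs, and their Scx level was 15067 CPM.

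In the culture, where no cell had 10 Tnmd UMIs, Thbs4 was at 66.5, 205 and 296 CPM in the 4082 cells without Tnmd, the 168 with 1 or 2 UMIs and the 67 with 3 to 9. Tnc was at 403, 566 and 750 CPM, and Scx was at 2541, 2434 and 2100 CPM. Thbs4 and Tnc were thus higher where Tnmd was higher, and Scx was slightly lower. Kera had no UMI in codes 1, 2 or 4 of the culture.

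Cells of code 4 with and without Cnmd differed in nearly all cartilage genes that could be compared, and this held in both libraries. In the culture, 9 of 11 were at least 2-fold higher in 63 cells with Cnmd than in 578 without, against 1.20% of all genes, and in the tail 16 of 16 were, in 76 cells against 164 and against 3.85% of all genes. Their median ratios were 2.85 and 4.27 (log2 1.51 and 2.09, with −0.05 and −0.06 over all genes). Col2a1, the main collagen of cartilage, was 3.29-fold (3.07 to 3.52) higher in the culture and 4.24-fold (3.92 to 4.59) in the tail. The aggrecan gene Acan was 3.96-fold (3.15 to 4.95) and 11.6-fold (7.42 to 19.0) higher. In the tail, the matrilin genes Matn1 and Matn3 were 19.9-fold (10.3 to 42.8) and 24.6-fold (9.96 to 78.7) higher, and in the culture both had too few UMIs. Median depths before thinning were 4001 and 4065 UMIs in the culture and 14028 and 12194 UMIs in the tail.

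Scx was lower in cells with Cnmd, at 0.560 (0.485 to 0.642) in the culture and 0.321 (0.274 to 0.374) in the tail. Of the thinned cells with Cnmd, 71.4% of the culture and 28.9% of the tail had a Scx UMI, against 86.7% and 61.3% of all thinned cells of code 4. Of the tendon list, 2 of 14 genes were at least 2-fold lower in the culture (Dcn and Thbs2), against 3.55% of all genes. In the tail 3 of 14 were higher (Col14a1, Lum and Tnc), against 3.85%, and 1 lower (Scx), against 5.71%. Inhibitors of angiogenesis went both ways. Thbs1, a thrombospondin, was the only member of 6 in the culture and of 4 in the tail to be at least 2-fold higher with Cnmd, at 3.73 (2.86 to 4.82) and 4.81 (3.57 to 6.53). The shares of all genes were 1.2% and 3.85%. Thbs2 (0.452, 0.238 to 0.787) and Col18a1 (0.353, 0.235 to 0.511) were lower in the culture, and Sema3a (0.456, 0.243 to 0.804) in the tail. Cxcl12 was at 0.531 (0.261 to 0.973) and 0.456 (0.297 to 0.680). Of 6 proliferation genes in the culture, 3 were at least 2-fold lower with Cnmd (Cenpf, Birc5 and Ube2c), and none of 3 in the tail. Of the somite and sclerotome list, Pax1 (0.239, 0.188 to 0.300) and Pax9 (0.332, 0.190 to 0.548) were lower in the tail, 2 of 3, and none of 4 in the culture. All 3 blood genes that could be compared in the tail were lower in cells with Cnmd, among them Hba-a1 (0.0445, 0.0177 to 0.0926), and the part of blood RNA in the comparison was not tested.

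Col2a1 and Acan were higher in each further Cnmd bin of code 4, by the same bins and without thinning. In the tail, Col2a1 was at 1411 CPM in 126 cells without Cnmd, at 3532 CPM in 36 cells with 1 or 2 UMIs, at 6149 CPM in 45 cells with 3 to 9 and at 10909 CPM in 34 cells with 10 or more. Acan was at 30.7, 93.8, 414 and 859 CPM, and Matn1 at 0, 6.87, 212 and 733 CPM. Scx fell from bin to bin, at 2923, 2023, 756 and 247 CPM. In the culture, Col2a1 was at 1853, 5235 and 7080 CPM in 770 cells without Cnmd, 63 with 1 or 2 UMIs and 22 with 3 to 9, and Acan was at 157, 518 and 914 CPM. Scx was at 1944, 1040 and 1160 CPM there, and thus did not fall between the last 2 bins. The notochord genes T and Shh of tail code 4 came from very few cells without Cnmd, 1 of which held 54 of the 56 UMIs of T and 2 of which held all 133 of Shh.

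**Figure D3:**
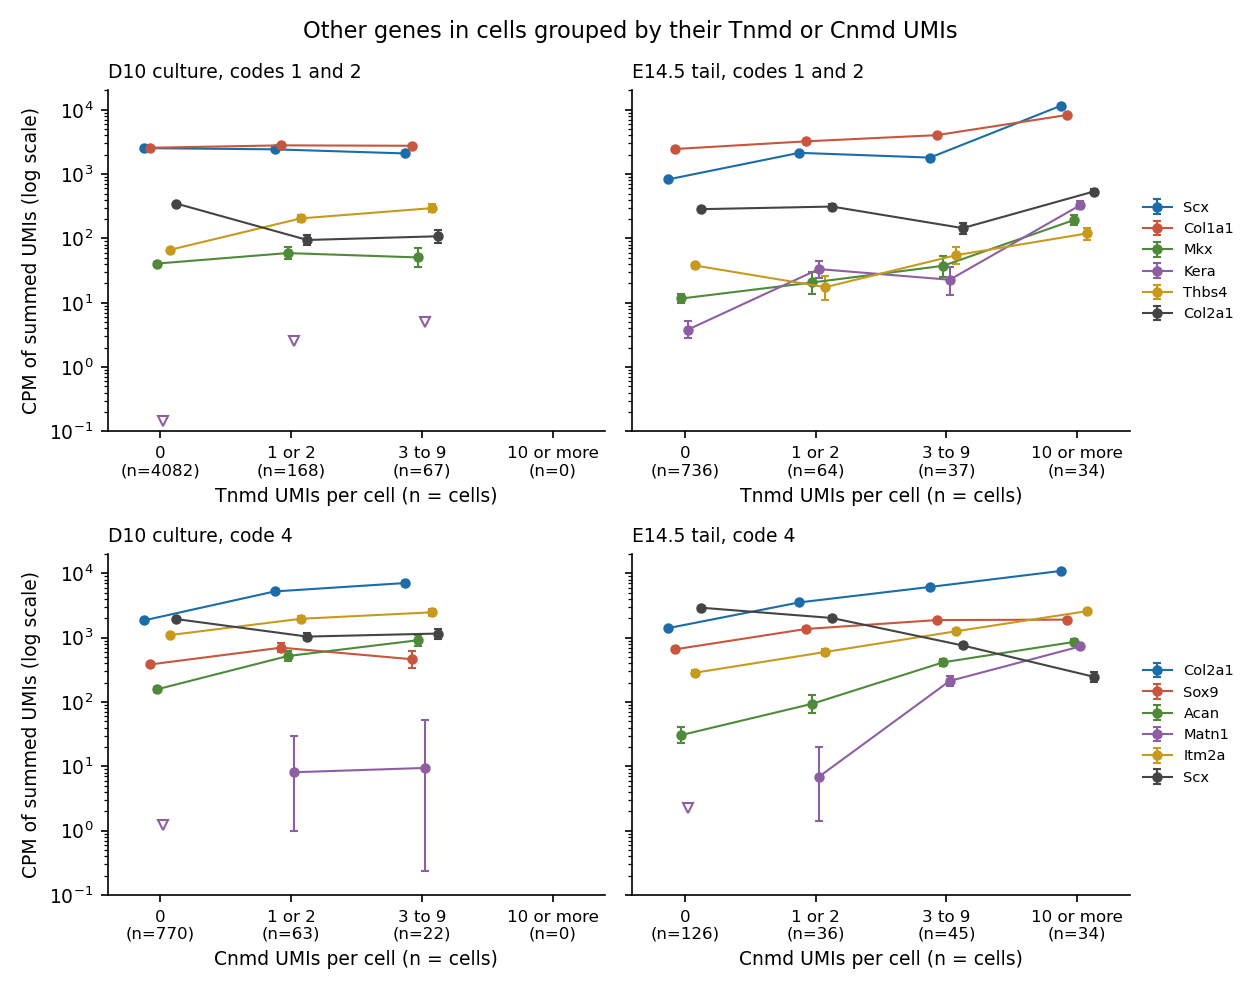
CPM (log axis) of tendon and cartilage genes in cells grouped by their UMIs of Tnmd (codes 1 and 2) or of Cnmd (code 4), without thinning, with exact 95% Poisson intervals as bars and open triangles at the upper limit of that interval where the level was 0. In the tail, Scx was at 11578 CPM in the 34 cells with 10 or more Tnmd UMIs and at 247 CPM in the 34 cells with 10 or more Cnmd UMIs.

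The few Cnmd cells of the proliferating tendon code were also high in Col2a1 and Acan. In tail code 2, Col2a1 was at 259 CPM in 151 cells without Cnmd and at 7595 CPM in 6 cells with 10 or more Cnmd UMIs, and Acan was at 3.13 and 552 CPM. Scx was at 1799 and 240 CPM in the same cells, but at 920 and 2312 CPM in the bins between them, and after thinning a Scx UMI was found in 8 of 16 Cnmd cells against 37.1% of all cells of tail code 2. In culture code 2 it was found in all 19 Cnmd cells, against 92.3%. In codes 1 and 2 of the culture, all 24 thinned cells with Cnmd had a Col2a1 UMI, against 38.4% of all thinned cells. In the tail 55.8% of 43 such cells had one, against 22.6%. For tail code 1 alone it was 33.3% of 27 cells, against 19.9%.

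Tnmd and Cnmd were then set beside the other tendon and cartilage genes in the contrast between codes. At least 2-fold higher in codes 1 and 2 than in code 4 were 8 of 19 tendon genes in the culture, against 9.43% of all 15254 genes compared, and 11 of 22 in the tail, against 11.8% of 15313. Differences of at least 2-fold either way were found for 13.8% of all genes in the culture and for 16.8% of them in the tail. The median log2 ratios of the tendon list were 0.71 and 1.02, and those of all genes were −0.0044 and 0.0045. Thbs4 was at 29.6 (15.6 to 64.8) in the culture and 68.2 (18.8 to 564) in the tail, the latter against 2 UMIs in code 4. In the tail Kera was 26.1-fold (8.85 to 127) higher with code 4, which had 0 UMIs, set to the floor of 3 counts. Dcn, which encodes the proteoglycan decorin, was 36.6-fold (30.6 to 44.1) higher there. Tnmd itself, at 21.2 in the culture and 11.2 in the tail, was not ranked against these genes. Its culture value rests on the floor, and its tail value was 199.7 without the 5 cells with most UMIs in each group. Mkx was at 2.0 (1.57 to 2.58) in the culture and 0.770 (0.613 to 0.976) in the tail, and Tnc at 2.28 (2.10 to 2.48) and 0.325 (0.299 to 0.354). Fmod, the fibromodulin gene, was higher in code 4 in both, at 0.413 (0.395 to 0.432) and 0.408 (0.357 to 0.468).

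Of the cartilage list, 14 of 18 genes in the culture and 19 of 19 in the tail were at least 2-fold higher in code 4, against 4.33% and 4.94% of all genes. Over the cultured library the list had a median ratio of 0.273, and over the tail library one of 0.0752. Col2a1 was at 0.145 (0.14 to 0.149) in the culture and 0.0685 (0.0662 to 0.0709) in the tail, as codes 1 and 2 over code 4. Acan was at 0.106 (0.0949 to 0.118) and 0.0350 (0.0289 to 0.0421). The same ratio of Cnmd was 0.0582 (0.0445 to 0.0757) and 0.0777 (0.0678 to 0.0889), so that Cnmd differed more than Col2a1 and Acan in the culture and about as much as Col2a1 and the median cartilage gene in the tail, where its interval overlaps that of Col2a1 and holds the median. With code 1 alone as the tendon code, Col2a1 differed more than Cnmd in the tail, at 0.0259 (0.0243 to 0.0275) against 0.0464 (0.0381 to 0.0562). In the culture Cnmd still differed more than Col2a1 and Acan, at 0.0189 (0.0108 to 0.0312) against 0.0961 and 0.0542. The 4 genes that did not pass in the culture were Ucma (0.673, 0.531 to 0.862), Comp (0.804, 0.312 to 2.64), Matn3 (1.08, 0.520 to 2.60) and the epiphycan gene Epyc. Epyc alone passed in the other direction, at 2.30 (1.55 to 3.56), and it was at 0.129 (0.0915 to 0.181) in the tail.

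**Figure D4:**
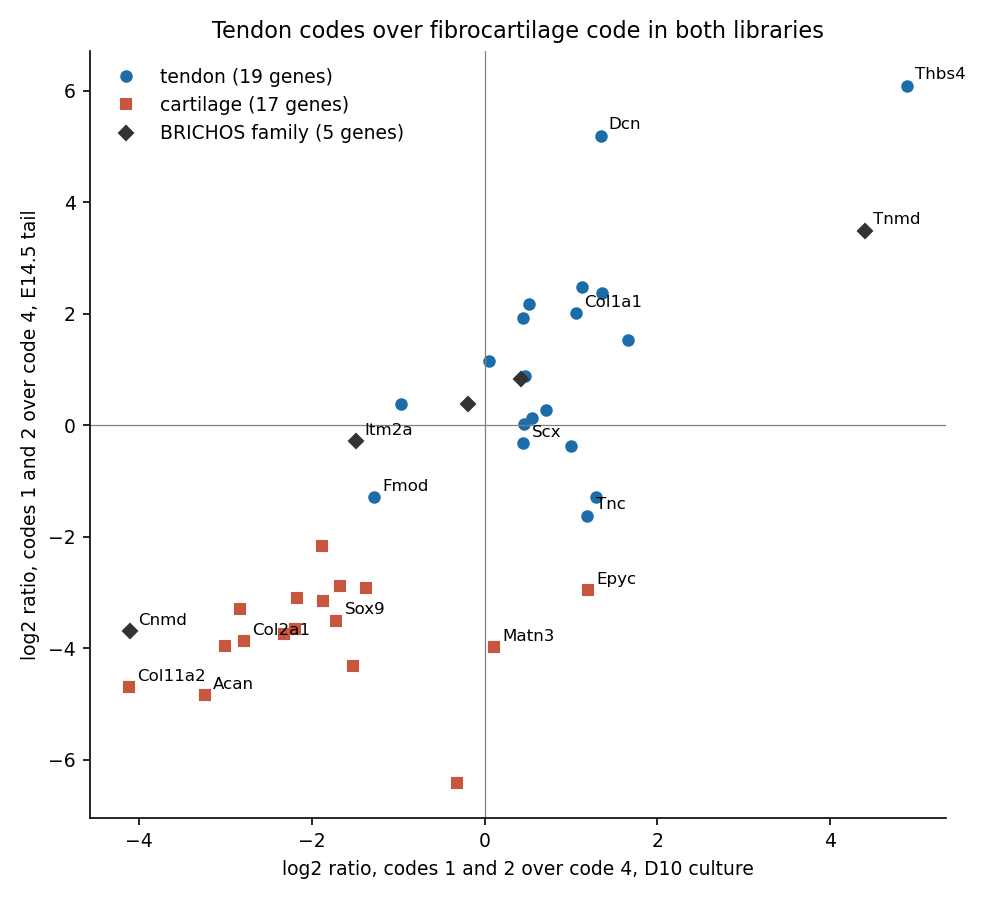
Ratio of codes 1 and 2 over code 4 for each gene of the tendon, cartilage and BRICHOS lists that could be compared in both libraries, with the culture on the horizontal and the tail on the vertical axis, both as log2 ratios. Tnmd stands for ratios of 21.2 in the culture, taken against a floor of 3 counts, and 11.2 in the tail, and Cnmd for 0.0582 and 0.0777.

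Of the other BRICHOS genes, Itm2a passed 2-fold in the culture, in the direction of Cnmd, and the others that could be compared stayed within 2-fold. Itm2a, Itm2b and Itm2c encode relatives with a BRICHOS domain that are expressed in many tissues. Itm2a was at 431 CPM in codes 1 and 2 and 1207 CPM in code 4 of the culture, a ratio of 0.357 (0.345 to 0.371), and at 0.819 (0.786 to 0.852) in the tail. Itm2b was at 1.34 (1.27 to 1.42) and 1.77 (1.66 to 1.89), and Itm2c at 0.872 (0.801 to 0.952) and 1.31 (1.19 to 1.44). Sftpc, Gkn1, Gkn2 and Bricd5 had at most 7 UMIs in these codes. In code 4, Itm2a went with Cnmd, at 1.81 (1.62 to 2.01) in culture cells with Cnmd over those without and at 3.80 (3.20 to 4.53) in the tail.

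Other inhibitors of angiogenesis were compared between the codes as well. In the culture 2 of 9 (Thbs2 and Flt1) were at least 2-fold higher in codes 1 and 2, and none in code 4, against 9.43% and 4.33% of all genes. In the tail 4 of 9 (Thbs2, Serpinf1, Flt1 and Adamts1) were higher in codes 1 and 2 and 2 (Thbs1 and Vash1) in code 4, against 11.8% and 4.94%, with Flt1 at 1 UMI in code 4. Thbs2 was at 2.57 (2.34 to 2.83) in the culture and 5.20 (3.99 to 6.88) in the tail, and Thbs1 at 0.585 (0.529 to 0.648) and 0.311 (0.287 to 0.336). The 2 thrombospondins thus leaned to the tendon and the fibrocartilage code, respectively, in both libraries, by less than Tnmd and Cnmd. Endothelial genes themselves were low in these codes, with 10 of them summing to between 41.1 and 82.4 CPM.

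Both genes were lower in the culture than in the tail. Tnmd in codes 1 and 2 was at 19.1 CPM in the culture and 98.5 CPM (93.5 to 104) in the tail, a ratio of 0.194 (0.175 to 0.214). It was 0.253 (0.225 to 0.285) in code 1 and 0.109 (0.0891 to 0.133) in code 2. Without the 5 cells with most UMIs in each group it was 0.284 (0.254 to 0.318) over both codes, 0.356 (0.311 to 0.406) in code 1 and 0.481 (0.355 to 0.655) in code 2, so that the order of the codes rested on such cells. Cnmd in code 4 was at 54.1 and 257 CPM, a ratio of 0.210 (0.178 to 0.247). The median gene was also lower in the culture, by a log2 shift of −0.26 in codes 1 and 2 and −0.17 in code 4, which is small beside these ratios. At least 2-fold higher in the tail were 21.2% of 17044 genes in codes 1 and 2 and 14.9% of 12275 genes in code 4, and 29.6% and 22.7% differed by that much either way.

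Genes of the same programs did not all follow. Scx was 1.65-fold (1.63 to 1.68) higher in codes 1 and 2 of the culture than of the tail. Of 22 tendon genes there, 5 were at least 2-fold higher in the culture (Fmod, Bgn, Tnc, Thbs2 and Postn), against 8.37% of all genes, and 5 were lower, among them Egr1, Six2, Kera and Dpt, a share close to the 21.2% of all genes. Kera had 0 UMIs in the culture and 342 in the tail, which puts the culture at 0.00464 (0.000953 to 0.0137) of the tail level at the floor of 3 counts. In code 4, 12 of 20 cartilage genes were at least 2-fold lower in the culture and 1, Ucma, was higher, against 14.9% and 7.78% of all genes. Sox9 was at 0.337 (0.317 to 0.359), Col2a1 at 0.530 (0.516 to 0.545) and Acan at 0.804 (0.726 to 0.890). Matn1 was at 0.00532 (0.00109 to 0.0156), from 3 UMIs against 561. Tendon genes of code 4 differed as well. At least 2-fold higher in the culture were Dcn (18.3), Postn (14.7), Thbs2 (7.91), Fmod (7.30), Bgn (3.27) and Col14a1 (2.23). Egr1 (0.118), Egr2 (0.332) and Dpt (0.0160) were at least 2-fold lower. The cells of code 4 were thus unlike in the 2 libraries. Other lists moved in code 4 too. All 7 proliferation genes (2.31 to 6.71) and both pluripotency genes (3.27 and 11.9) were at least 2-fold higher in the culture, and all 4 blood and all 3 nerve genes were lower. In codes 1 and 2, all 3 pluripotency genes were higher in the culture, all 5 blood and all 4 nerve genes were lower, and none of 7 proliferation genes passed. Their part in the levels of Tnmd and Cnmd was not tested. Itm2a, Itm2b and Itm2c stayed within 2-fold in both comparisons.

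Across the 21 groups of 1 library and 1 code with at least 50 cells, the genes whose levels were most like those of Tnmd were Meox2 (Pearson r = 0.875), Osr1 (0.766), Abi3bp (0.751), Foxd2os (0.749) and Myh11 (0.744), of 8271 genes with at least 50 CPM in some group. These are correlations of log2(CPM + 10), and the groups share libraries, depths and the high levels of the tail. Kera reached 0.801 but was too low to be ranked. Meox2, a homeobox gene of the somite, was at 36.0, 34.5 and 31.3 CPM in codes 1, 2 and 4 of the culture and 144, 117 and 49.0 CPM in the tail, so that it differed little between the codes of the culture. The genes most like Cnmd were Cytl1 (0.957), Saa1 (0.952), Bmper (0.935), Cyp26b1 (0.913) and AI646519 (0.894). Cytl1, a cytokine-like gene of cartilage, was at 0.181, 1.68 and 15.9 CPM in codes 1, 2 and 4 of the culture and at 7.41, 32.1 and 298 CPM in the tail, an order it shared with Cnmd. Tnmd and Cnmd correlated at 0.259 over the same groups.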

How the data were processed

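Single-cell counts were analysed for the D10 culture and the E14.5 tail. The counts deposited by the authors are raw UMIs for every gene in every cell, made with Cell Ranger 3.1.0 from 10x Genomics 3′ libraries with multi-mapping reads ignored. Before deposit, the authors excluded cells above 7.5% mitochondrial transcripts and the 2% of cells at either end of the transcript range, and their cluster codes, made with Seurat 3.0, stand in the same tables. The genome build is not given in the sources used here.

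UMIs were summed per gene, library and code in Python 3.11.15 (NumPy 2.4.6, with SciPy 1.17.1 for intervals) and divided by the total UMIs of the same cells (CPM). Intervals are exact at 95%, Poisson for levels, conditional binomial for ratios and Clopper-Pearson for shares. A group at 0 was set to a floor of 3 counts over the group. Counts of genes past 2-fold required 20 UMIs or more over the 2 groups, and, between cells with and without a UMI, at least 10 UMIs expected in the smaller group. Cells were thinned at random (seed 1) to 3000 UMIs. Scrublet, run in Scanpy 1.11.5 at an expected rate of 6%, called 116 culture (1.48%) and 9 tail cells (0.439%) as doublets, which were kept. For the tail this is under 0.5%, so doublets of the tail may be missed, as may those the authors' upper cell filter did not remove. The rule for genes past 2-fold was tested on simulated data, and the outcome is not given here.

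Coding sequences were taken from GENCODE mouse transcripts, aligned with Biopython 1.88, and promoters from RefSeq (GRCm38.p6). Both genes matched in each. Proteins were not analysed here. Figures used Matplotlib 3.10.9. Named genes were the 2 members, the genes of 15 lists (BRICHOS, tendon, cartilage and hypertrophic cartilage, inhibitors and activators of angiogenesis, and markers of other cell types), and the 5 genes most correlated with each member. Some genes of the lists enter the counts but are not reported here by name. Members and lists were chosen with earlier results of these data known. Alternatives varied the cells, the CPM total, the weighting of cells, the tendon code, the thinning depth and the filter on low counts.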

Additional observations from a re-analysis of the deposited data

Results flagged for a closer look

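The level of Tnmd in the proliferating code 2 relative to code 1 went in opposite directions in the 2 libraries, at 0.515 in the culture and 1.20 in the tail, and the difference between them was not tested. The tail value rested on few cells and was 0.321 without the 5 cells with most Tnmd UMIs in each code, so that the opposite directions did not hold then.

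Scx was 1.36-fold higher in codes 1 and 2 than in code 4 of the culture and lower in the tail, at 0.803, and this difference was not tested.

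Several cartilage genes differed in direction between the libraries when cells of codes 1 and 2 with a Tnmd UMI were set against those without. This difference was again not tested. All 9 cartilage genes compared in the culture were lower in cells with Tnmd, at ratios of 0.810 or less. The 8 compared in the tail had a median ratio of 1.42, with values from 0.402 to 3.94. Col2a1 was at 0.333 in the culture and 1.53 in the tail. Col11a1 was at 0.810 and 3.94, and Matn4 at 0.262 and 2.50.

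Cnmd was measured in a code that entered none of the comparisons, at 34.5 CPM in the 38 cells of tail code 14, above the floor of 3 counts over the code.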

How the results depend on the processing

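Of 69 values recomputed under alternatives, 41 stayed within the limits set for them, 27 moved and 1 turned its direction. The ratios of Tnmd and Cnmd between the tendon and fibrocartilage codes and between libraries kept their direction under all alternatives, and doublet removal, the filter at 1000 genes, equal weighting of cells and another CPM total moved none of them beyond its interval. Without the 5 cells with most UMIs in each group, an alternative chosen after seeing the data, Cnmd in code 4 over codes 1 and 2 reached 24.4 (culture) and 15.5 (tail), Tnmd in codes 1 and 2 over code 4 of the tail was 199.7, and Tnmd of culture over tail was 0.284. The same setting turned Tnmd in code 2 over code 1 of the tail to 0.321. With code 1 alone as the tendon code, Cnmd was at 52.8 and 21.5, and Tnmd of culture over tail at 0.253. The shares of cells moved with the thinning depth, which also sets how many cells are deep enough to be kept. Tnmd in codes 1 and 2 was found in 1.65%, 6.15% and 5.44% of culture cells and 5.86%, 10.7% and 15.5% of tail cells at 1500 UMIs, at 5000 UMIs and without thinning. Cnmd in code 4 was found in 5.28% of culture cells and 22.0% of tail cells at 1500 UMIs, and in 47.7% of tail cells without thinning.

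The filter on low counts set the number of genes past 2-fold. It also set how many genes were compared, so the shares of all genes depend on it. Between codes 1 and 2 and code 4 of the culture it was 2098 of 15254, 966 of 11467 at 100 UMIs and 5971 of 24094 at 1 UMI. In the tail it was 2570 of 15313, 1272 of 11314 and 5692 of 24109. Between culture and tail it was 5047 of 17044, 2794 of 12805 and 8015 of 26129 in codes 1 and 2. In code 4 it was 2784 of 12275, 1205 of 8252 and 5427 of 21780. No paired analysis was possible because each condition is 1 library, and leaving out a replicate could not be run for the same reason. The planned comparison of the proteins and the levels in D6 PM were not run.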

Other observations

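Other gene groups also differed between the tendon and fibrocartilage codes, given here as codes 1 and 2 over code 4. Of all genes, 9.43% in the culture and 11.8% in the tail were at least 2-fold higher in codes 1 and 2, and 4.33% and 4.94% in code 4. The sclerotome genes Pax1, Pax9 and Nkx3-2, which mark the part of the somite that gives rise to the axial skeleton, 3 of 6 members of a somite and sclerotome list, were at least 2-fold higher in code 4 in both libraries, with Pax1 at 0.163 (0.145 to 0.184) in the culture and 0.160 (0.152 to 0.169) in the tail. Meox2 of the same list went the other way in the tail, at 2.78 (2.36 to 3.28). Spp1, the osteopontin gene, was at 3.16 (2.80 to 3.60) in the culture and 0.00602 (0.00309 to 0.0106) in the tail. Of the hypertrophic cartilage list, 1 of 3 genes (Spp1) was at least 2-fold higher in codes 1 and 2 of the culture, and in the tail 1 of 4 (Alpl) was higher and 2 (Ihh and Spp1) were lower. All 7 proliferation genes were at least 2-fold higher in codes 1 and 2 in both libraries, with Mki67 at 3.75 (3.40 to 4.15) and 7.92 (6.71 to 9.41).

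Of 10 activators of angiogenesis, 1 was at least 2-fold higher in codes 1 and 2 of the culture and 1 in code 4, and 2 and none in the tail, shares near those of all genes. Angpt2 was at 5.24 in the culture (0.891 to 212, an interval that holds equal levels), from 43 UMIs against 1, and Fgf2 was lower at 0.490 (0.392 to 0.617). In the tail Vegfc was higher at 2.74 (1.87 to 4.15), and Apln at 14.6 (2.54 to 587), from 64 UMIs against 1. For the markers of other cell types, the genes at least 2-fold higher in codes 1 and 2, and in code 4, were 3 and 0 of 6 endothelial genes in the culture and 4 and 1 of 8 in the tail (against the shares of all genes given above), 0 and 0 of 4 epithelial genes and 0 and 4 of 5, 1 and 0 of 2 muscle genes in both, 1 and 0 of 1 blood gene and 0 and 2 of 5, 1 and 1 of 3 nerve genes and 2 and 2 of 6, and 1 and 0 of 3 pluripotency genes and 0 and 0 of 1. Both notochord genes of the tail, T and Shh, were at least 2-fold higher in code 4. Several of these calls rest on 3 or fewer UMIs in code 4 and have intervals that hold equal levels, as for Acta1 (2.86, 0.750 to 24.3), Hba-a1 (2.56, 0.411 to 106) and Nanog (2.03, 0.656 to 10.2) in the culture and Esam (2.52, 0.790 to 12.8) in the tail.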
